A study of Homo sapiens with 8 samples.

Results

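The Notch genes examined here were 10 named genes of one signalling pathway, picked by name from the 56632 genes of the deposited count table: the receptors NOTCH1, NOTCH2, NOTCH3 and NOTCH4, the ligands JAG1, JAG2 and DLL1, and the target genes HES1, HEY1 and NRARP. All 10 had enough counts to be tested. Their RNA was measured in 4 related human mammary epithelial cell lines, with 2 biological replicates of each. M1 was MCF10A, a spontaneously immortalized line that forms no tumours. M2 was MCF10AT1k.cl2, which was made from MCF10A by transfection with activated T24-HRAS and selection through a xenograft, and which forms premalignant lesions. M3 was MCF10Ca1h and M4 was MCF10CA1a.cl1, both taken from carcinomas that arose in xenografts of M2 cells, so that both also descend from the HRAS-transfected cells. The tumours that M3 cells form are mainly of low grade and differentiated, those of M4 cells are less differentiated, and M4 cells injected into the tail vein settle in the lung. Each line is a single lineage, so a difference between lines may belong to the lineage as well as to its stage. All cells were grown for 8 days in Matrigel as three-dimensional acini with 2% horse serum, and poly A+ RNA was sequenced. The medium of M1 and M2 held 10 ng/ml EGF and that of M3 and M4 held none. M2 against M1 and M4 against M3 are therefore matched for EGF, while in the other 4 pairs the line and the EGF cannot be told apart.

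Notch receptors are single-pass membrane proteins that are cut when a ligand of the Jagged or Delta-like families on a neighbouring cell binds them. The freed intracellular part enters the nucleus, joins the DNA-binding protein RBPJ and co-activators of the MAML family, and switches on target genes. HES1 and HEY1 encode transcriptional repressors of the basic helix-loop-helix class, and NRARP encodes a small ankyrin repeat protein that feeds back on the pathway. In the mammary gland, Notch signalling is known for its part in the choice between basal and luminal epithelial fates. The pathway is also known from breast cancer, where JAG1 and NOTCH1 in particular have been studied.

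HES1 and NRARP were the targets whose promoters are shown, because both are direct Notch targets in textbooks and both were lowest in M4. The 250 bases before each transcription start are printed 5′ to 3′ along the gene, from RefSeq on GRCh38.p14, with capitals for any match to the core RBPJ site GTGGGAA or to the N-box CACNAG, the site that HES proteins bind. Both strands were searched. The HES1 window is chr3:194135898-194136147 on the plus strand and the NRARP window is chr9:137302272-137302521 on the minus strand.
HES1: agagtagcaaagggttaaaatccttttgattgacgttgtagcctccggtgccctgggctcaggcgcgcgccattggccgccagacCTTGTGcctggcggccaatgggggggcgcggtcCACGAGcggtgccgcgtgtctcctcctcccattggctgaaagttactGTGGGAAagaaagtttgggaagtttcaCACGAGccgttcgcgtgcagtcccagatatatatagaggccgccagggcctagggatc
NRARP: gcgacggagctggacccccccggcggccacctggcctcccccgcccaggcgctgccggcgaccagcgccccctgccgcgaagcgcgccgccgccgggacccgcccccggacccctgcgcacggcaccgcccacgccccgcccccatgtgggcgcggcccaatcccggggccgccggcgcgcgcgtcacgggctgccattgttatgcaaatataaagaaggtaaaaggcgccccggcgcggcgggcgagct
The HES1 window held 1 core RBPJ site, from base -85 to base -79 before the start, and 3 N-boxes, at -165 to -160, -132 to -127 and -58 to -53, of which the first is on the opposite strand. The NRARP window held neither. Promoters of 8 of the 10 genes were searched, and HES1 was the 1 gene with a core RBPJ site. NOTCH3 had an N-box at -211 to -206 and NOTCH4 had one on the opposite strand at -75 to -70. No promoter held the E-box CACGTG. Of 35116 human promoter windows of that length, 5.43% held the core RBPJ site, 32.0% the N-box and 6.34% the E-box. These matches describe letters and are not evidence of binding.

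The 8 libraries held between 69669945 and 107350288 counts. Values below are counts per 1000000 counts of a library (CPM), after scaling of each library by the trimmed mean of M-values. HRAS was at 154 and 139 CPM in M1, 160 and 153 CPM in M2, 269 and 327 CPM in M3, and 335 and 352 CPM in M4, a level that does not separate the transfected HRAS from the cell's own. M2 against M1 gave a log2 fold change of 0.10 ± 0.15 (SE, adjusted p = 0.74), so HRAS was not called higher in M2. Basal mammary markers summed to 6200 to 14500 CPM and luminal epithelial markers to 1380 to 4760 CPM, so that both sets of epithelial markers were present. M4 had the lowest summed basal level, at 6200 to 7900 CPM against 9100 or more in the other lines, and the highest summed luminal level, at 3100 to 4760 CPM against at most 2530 CPM, and the part of this in the results below was not tested. Single markers did not all follow the sums. KRT5, which dominates the basal sum, was at 2837 to 3268 CPM in M4 and at 5365 CPM or more elsewhere, and KRT14 and TP63 were also lowest in M4, whereas KRT17 (2117 to 3312 CPM) and ITGB4 (940 to 998 CPM) were higher in M4 than in M1 (1140 to 1656 CPM and 737 to 766 CPM) and CDH3 lay within the range of M1. Of the luminal markers, KRT8 and KRT18 were highest in M4, while EPCAM overlapped with M3, CDH1 overlapped with M1, and KRT19 was at 3.72 CPM or less in every library. Endothelial markers were of interest because NOTCH4 is known from endothelium. Of the 4 listed, 3 matched a row (VWF, CDH5 and TEK, not PECAM1), and these summed to at most 0.392 CPM. The blood cell markers summed to at most 0.0366 CPM, with 2 of 4 at 0 in every library. The fibroblast markers summed to 6.42 to 26.2 CPM with COL1A2 at 0 throughout, and the hormone receptors ESR1 and PGR to 0.687 to 4.01 CPM. In bulk RNA, fewer cells of a type and less RNA per cell cannot be told apart.

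2 libraries need care. In a gene table published with the study, these stand under each other's names: over 267 genes, the column named M2 replicate 1 correlated at r = 0.98 with the deposited library of label M1 replicate 2, and the column named M1 replicate 2 at r = 0.959 with that of label M2 replicate 1. The other 6 columns matched the libraries of their own label. Under the labels, the M2 replicates were closer to each other (Spearman rho 0.998 across genes) than the M1 replicates (0.971). With the 2 libraries exchanged, the replicates of M1 would be at 0.96 and those of M2 at 0.962. Which arrangement is right was not tested. The labels are followed here. Fold changes of Notch pathway genes that rest on M1 or M2 are also given, or said to have held their call, without both libraries and with the 2 exchanged. By label, the biological coefficient of variation, a relative spread between replicates, was 0.057 in M2, 0.377 in M1, 0.307 in M3 and 0.271 in M4. The main fit estimates the spread of a gene over all lines together. The p-values of every pair, also of pairs without M2, therefore rest in part on the close M2 replicates.

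Calls between lines were made with the quasi-likelihood test of edgeR, at an adjusted p under 0.05 and a difference above 2-fold. JAG1 was the 1 Notch gene called higher in M4, while DLL1, NOTCH4, HEY1, NRARP and, against M1, HES1 were called lower in M4. NOTCH2 was also higher in both M4 libraries than in all other libraries, under the 2-fold limit. NOTCH3 was higher in M4 than in M2 and M3, at adjusted p-values that missed the threshold. 6 of the 10 genes were called in M4 against M1, 1 higher and 5 lower, where 20.7% of the 18431 genes tested were called (9.48% higher and 11.2% lower). 5 were called in M4 against M2, 1 higher and 4 lower, where 13.9% of all genes were called (6.98% higher and 6.94% lower). In M4 against M3, the EGF-matched pair of tumour-derived lines, DLL1 alone was called, and 10.3% of all genes were. NOTCH1 alone was called in M3 against M1, where 13.5% of all genes were. No Notch gene was called in M2 against M1 (3.37% of all genes called) or in M3 against M2 (4.15%). DESeq2 called 0 and 2 in these pairs, beside 7.14% and 7.80% of all genes with an adjusted p. At an unadjusted p under 0.05 there were 3 genes in M2 against M1 and 4 in M3 against M2. The share of all genes at that limit was not counted, so nothing is read from these numbers. In a test of any difference among the 4 lines, 6 of the 10 genes passed at an adjusted p under 0.05 (NOTCH1, NOTCH4, JAG1, DLL1, HES1 and HEY1), where 36.4% of all genes did.

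The 3 comparisons of M4 share its 2 libraries. The median log2 fold change of the 10 genes was -0.82 in M4 against M1 and -0.53 in M4 against M2, where the medians over all genes were -0.02 and -0.01. In M4 against M3 it was -0.40, with -0.02 over all genes. Without the 2 doubted libraries, 2 genes (JAG1 and DLL1) were called in M4 against M1 and 3 (NOTCH3, JAG1 and DLL1) in M4 against M2, where 12.5% and 7.31% of all genes were. With the 2 libraries exchanged, 3 genes (JAG1, DLL1 and HEY1) were called in M4 against M1 and the same 5 as under the labels in M4 against M2, where 8.46% and 10.2% of all genes were. Fits that left out 1 library called 1 gene in M4 against M1 without M4 replicate 2 (12.3% of all genes), 3 without M1 replicate 2 (15.8%) or M4 replicate 1 (14.2%), and 6 otherwise (15.9% to 19%). In M4 against M2 they called 1 gene without M2 replicate 1 (4.71% of all genes), M2 replicate 2 (4.88%) or M4 replicate 2 (8.43%), 2 without M4 replicate 1 (7.43%), and 4 to 6 otherwise (12.9% to 14.4%). In M4 against M3 they called 2 genes without M1 replicate 1 (11% of all genes), M1 replicate 2 (11.2%) or M3 replicate 2 (8.49%). Without M1 replicate 1, or without M1 replicate 2, 3 genes were called in M3 against M1 (10.6% and 11.7% of all genes) and 1 in M2 against M1 (2.93% and 4.46%). Among the 4 lines, 2 genes passed without M2 replicate 1 (16.7% of all genes), M2 replicate 2 (16.8%) or M4 replicate 2 (20.2%), 3 without M4 replicate 1 (19.8%), 3 without both doubted libraries (15.4%) and 2 with them exchanged (8.96%).

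**Figure D1:**
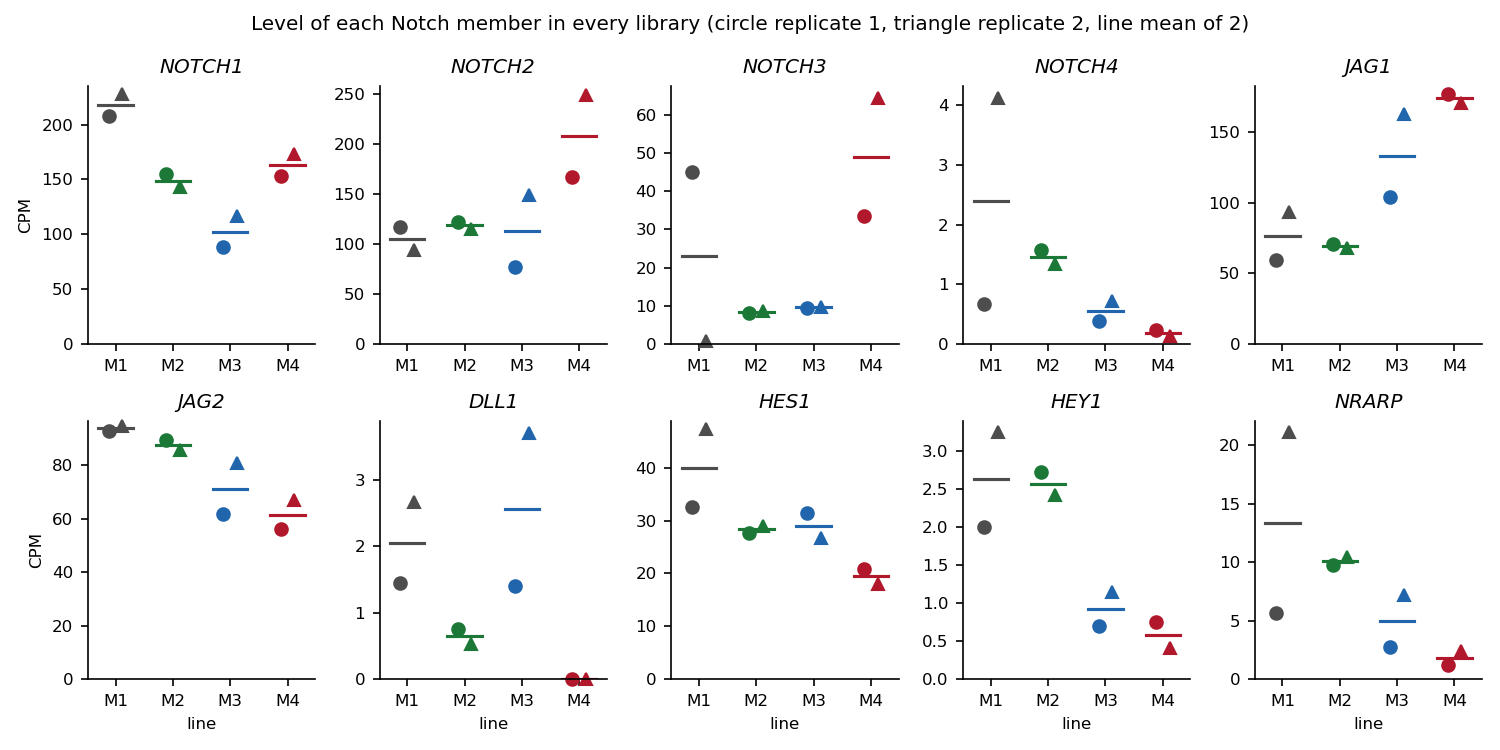
Level of each of the 10 Notch genes in CPM (vertical axis, linear from 0) in the 4 lines, with replicate 1 as a circle, replicate 2 as a triangle and a line at the mean of 2. Both M4 libraries sit at 0 for DLL1, and JAG1 is highest in M4 at 171 and 177 CPM.

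NOTCH1 was the most abundant receptor per unit length in 6 of the 8 libraries. The gene (ENSG00000148400, GRCh37 chromosome 9, 139388885 to 139440500, minus strand) was at 208 and 228 CPM in M1, 155 and 143 CPM in M2, 88.6 and 116 CPM in M3, and 153 and 173 CPM in M4. Both M1 libraries were above all others and both M3 libraries below all others, with M2 and M4 overlapping between them. NOTCH1 fell in M3 against M1 by 1.09 on the log2 scale (SE 0.17, adjusted p = 0.0047). The call was lost without M3 replicate 1, where the log2 fold change was -0.90, and with the 2 doubted libraries exchanged, where it was -0.83, and it held without both of them at -1.02. M4 lay above M3 with a log2 fold change of 0.67 ± 0.17 (SE, adjusted p = 0.032), which is under the 2-fold limit. In the order M1, M4, M2, M3, no pair of neighbours was called.

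NOTCH2 (ENSG00000134250, chromosome 1, 120454176 to 120643366, minus strand) was at 117 and 94.2 CPM in M1, 122 and 115 CPM in M2, 77.2 and 149 CPM in M3, and 167 and 249 CPM in M4. Both M4 libraries were above the other 6, and M1, M2 and M3 overlapped. M4 against M1 gave a log2 fold change of 0.98 ± 0.32 (SE, adjusted p = 0.048), just under the 2-fold limit. It was 0.84 (adjusted p = 0.25) without both doubted libraries and 0.80 (adjusted p = 0.17) with them exchanged. None of the 5 names of the NOTCH2 paralogs that were looked up matched a row, so reads shared with near-identical copies cannot be traced and the NOTCH2 level is uncertain to that extent.

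NOTCH3 (ENSG00000074181, chromosome 19, 15269849 to 15311806, minus strand) differed more between the replicates of a line than the other 9 genes did, in M1. It was at 45.1 CPM (3735 counts) in M1 replicate 1 and at 0.927 CPM (76 counts) in M1 replicate 2. M2 was at 8.19 and 8.60 CPM, M3 at 9.59 and 9.75 CPM, and M4 at 33.6 and 64.3 CPM. M2 and M3 were even between replicates and M4 lay above both, while M1 spanned the whole range of the M2 and M3 libraries. NOTCH3 in M2 and M3 was thus below M1 replicate 1 and above M1 replicate 2. When either M1 library was left out, NOTCH3 was called in M2 against M1 and in M3 against M1. The direction of those calls depended on which M1 library was left out. M4 against M2 gave a log2 fold change of 2.55 ± 1.28 (SE), and the adjusted p of 0.19 missed the threshold. The spread is estimated over all libraries, and without M1 replicate 1 the same difference was 2.56 (adjusted p = 0.0022), and without M1 replicate 2 it was 2.54 (adjusted p = 0.0021). Without both doubted libraries it was 2.51, and with them exchanged it was 3.37 (adjusted p = 0.085).

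NOTCH4 was the rarest receptor in every library except M1 replicate 2. The gene (ENSG00000204301, chromosome 6, 32162620 to 32191844, minus strand) was at 0.677 and 4.12 CPM in M1, 1.58 and 1.35 CPM in M2, 0.392 and 0.723 CPM in M3, and 0.238 and 0.141 CPM in M4. Both M4 libraries were below the other 6. The log2 fold change was -3.64 ± 0.85 (SE, adjusted p = 0.016) in M4 against M1 and -2.93 ± 0.84 (adjusted p = 0.042) in M4 against M2. The first rested on M1 replicate 2, without which it was -1.81 (adjusted p = 0.068), and it was -4.40 and still called without M1 replicate 1. The first call was also lost without M4 replicate 1 (-4.07) and without M4 replicate 2 (-3.31), without both doubted libraries (-1.82) and with them exchanged (-2.56). With edgeR fitted to M4 and M1 alone, the first call was lost too (-3.64, adjusted p = 0.052). The second was lost when any library of M2, M3 or M4 was left out, with values from -3.36 to -2.59, and without both doubted libraries (-2.81), and it held at -3.83 with them exchanged. Exons of NOTCH4 overlap those of GPSM3 on the same strand, which had at most 58 counts.

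Per kilobase of the canonical transcript, NOTCH1 was at 21.8 and 23.8 CPM per kb in M1 and NOTCH2 at 10.2 and 8.25 CPM per kb. In M4 the same levels were 16.0 and 18.1 CPM per kb for NOTCH1 and 14.7 and 21.8 CPM per kb for NOTCH2. The ratio of NOTCH2 to NOTCH1 per kb was 0.469 and 0.346 for M1, 0.660 and 0.674 for M2, 0.730 and 1.07 for M3, and 0.914 and 1.21 for M4. Both M1 libraries had the lowest ratios and M3 and M4 overlapped. NOTCH3 made up 0.326% to 15.7% of the summed receptor level per kb, and NOTCH4 0.0442% to 1.86%.

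JAG1 rose in M4, whereas JAG2 was called in no pair. JAG1 (ENSG00000101384, chromosome 20, 10618332 to 10654647, minus strand) was at 59.3 and 93.7 CPM in M1, 71.0 and 68.2 CPM in M2, 104 and 162 CPM in M3, and 177 and 171 CPM in M4. M1 and M2 overlapped, and both M3 libraries and then both M4 libraries lay above them. The log2 fold change was 1.18 ± 0.26 (SE, adjusted p = 0.013) in M4 against M1 and 1.32 ± 0.26 (adjusted p = 0.012) in M4 against M2. M3 against M1 gave 0.80 ± 0.26 (adjusted p = 0.065), and without M1 replicate 2 or M3 replicate 1 that pair was called too, at 1.17 and 1.09. The call in M4 against M1 was lost without M1 replicate 1 (0.91) and, at adjusted p-values of 0.057 and 0.056, without M4 replicate 1 (1.17) and without M4 replicate 2 (1.23). The call in M4 against M2 was lost when any library of M2 or M4 was left out, with values from 1.29 to 1.37. Both calls held without both doubted libraries (1.55 and 1.35) and with them exchanged (1.41 and 1.10). M3 against M1 was 1.17 without both doubted libraries and 1.03 (adjusted p = 0.12) with them exchanged.

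JAG2 (ENSG00000184916, chromosome 14, 105607319 to 105635161, minus strand) was at 92.9 and 94.6 CPM in M1, 89.3 and 85.7 CPM in M2, 61.8 and 80.7 CPM in M3, and 55.9 and 67.1 CPM in M4. Both M1 libraries were highest and M3 and M4 overlapped. M4 against M1 gave a log2 fold change of -0.61 ± 0.17 (SE, adjusted p = 0.027), which is under the 2-fold limit. It was -0.59 (adjusted p = 0.17) without both doubted libraries and -0.57 (adjusted p = 0.11) with them exchanged. Per kb, the ratio of JAG1 to JAG2 was 0.621 and 0.962 for M1, 0.773 and 0.773 for M2, 1.63 and 1.96 for M3, and 3.07 and 2.47 for M4. JAG2 was the more abundant of the 2 Jagged ligands in all 4 libraries of M1 and M2, and JAG1 was in all 4 libraries of M3 and M4, the lines grown without EGF.

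**Figure D2:**
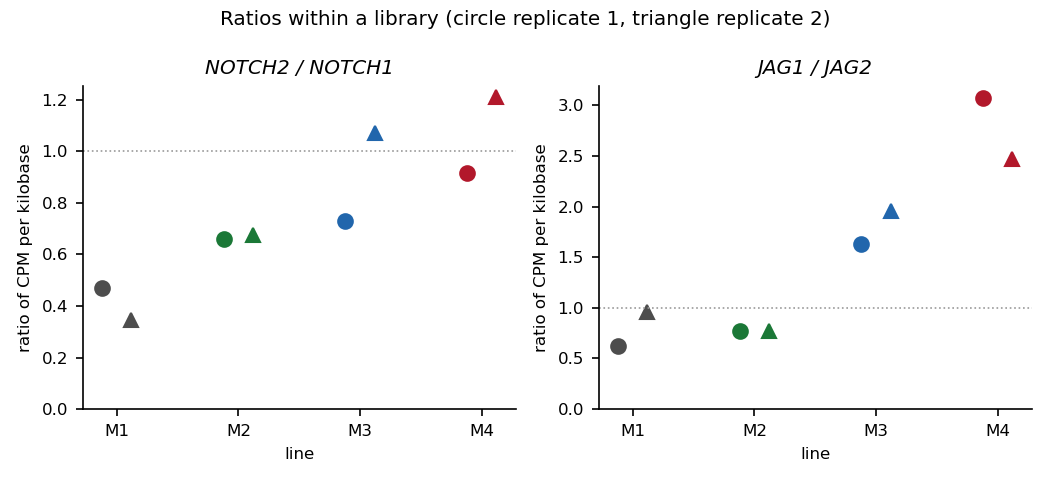
Ratios of CPM per kilobase (vertical axes, linear from 0) of NOTCH2 to NOTCH1 and of JAG1 to JAG2 within each library, by line, with replicate 1 as a circle, replicate 2 as a triangle and a dotted line at a ratio of 1. The JAG1 to JAG2 ratio is below 1 in M1 and M2 and between 1.63 and 3.07 in M3 and M4.

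DLL1, a Delta-like ligand, was not detected in M4. The gene (ENSG00000198719, chromosome 6, 170591294 to 170615653, minus strand) was counted 119 and 218 times in the M1 libraries, 77 and 37 times in those of M2, 111 and 322 times in those of M3, and 0 times in both of M4. As levels, M1 was at 1.44 and 2.66 CPM, M2 at 0.756 and 0.526 CPM, M3 at 1.40 and 3.70 CPM, and M4 at 0, where a count of 0 allows up to 0.0264 CPM in replicate 1 and 0.0384 CPM in replicate 2 (3 counts in each library, for counting error only). DLL1 was thus a gene of low level in every line, and M1 and M3 overlapped while both M2 libraries lay below them. Against that limit, and from the mean of the other line, DLL1 in M4 was at least 63.2-fold lower than in M1. It was at least 19.8-fold lower than in M2 and at least 78.6-fold lower than in M3. The edgeR test of any difference, which does not test the bound, gave adjusted p-values of 0.0013, 0.0042 and 0.0036. The bound was 44.3-fold against M1 without M1 replicate 2, 16.2-fold against M2 without M2 replicate 1, and 43.2-fold against M3 without M3 replicate 2. All 3 calls held when any single library was left out, without both doubted libraries and with them exchanged. M4 against M3 is the EGF-matched pair, so the EGF does not differ there.

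Part of FAM120B (170599791 to 170716155, plus strand) overlaps exons of DLL1 on the opposite strand. FAM120B was at 36.7 and 44.8 CPM in M1, 42.8 and 43.8 CPM in M2, 31.7 and 35.4 CPM in M3, and 31.3 and 27.1 CPM in M4. The M4 libraries thus kept 3551 and 2116 FAM120B counts while DLL1 had 0. Whether the authors' counting used strand is not stated in the sources used here, although the TruSeq mRNA kit named for the libraries is listed under the catalogue number of its stranded form. Without strand, reads of DLL1 and FAM120B in the shared exons cannot be told apart.

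HES1 fell in M4 against M1 by about the 2-fold limit. The gene (ENSG00000114315, chromosome 3, 193853937 to 193856521, plus strand), whose promoter with the core RBPJ site is printed above, was at 32.6 and 47.4 CPM in M1, 27.7 and 28.9 CPM in M2, 31.4 and 26.7 CPM in M3, and 20.9 and 18.0 CPM in M4. Both M4 libraries were below the other 6, both M1 libraries above, and M2 and M3 overlapped. The log2 fold change was -1.04 ± 0.20 (SE, adjusted p = 0.0079) in M4 against M1 and -0.54 ± 0.20 (adjusted p = 0.094) in M4 against M2. The second was -0.58 without both doubted libraries and -0.97 (adjusted p = 0.054) with them exchanged. The call in M4 against M1 was lost without M1 replicate 2 (-0.74), without M4 replicate 2 (-0.92), without both doubted libraries (-0.74), with them exchanged (-0.63) and with scaling by library totals (-0.98).

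HEY1 (ENSG00000164683), the other helix-loop-helix repressor, split the lines by pairs. It was at 2.01 and 3.26 CPM in M1, 2.73 and 2.42 CPM in M2, 0.695 and 1.15 CPM in M3, and 0.749 and 0.410 CPM in M4. M1 overlapped M2 and M3 overlapped M4, and every library of M1 and M2 was above every library of M3 and M4, the same split as that of EGF in the medium. HEY1 had a log2 fold change of -2.17 ± 0.47 (SE, adjusted p = 0.011) in M4 against M1 and -2.14 ± 0.47 (adjusted p = 0.017) in M4 against M2. M3 against M1 gave -1.51 ± 0.46 (adjusted p = 0.052), just above the threshold, and DESeq2 called that pair (-1.52). In edgeR that pair was at -1.115 without both doubted libraries and at -1.36 (adjusted p = 0.21) with them exchanged. Without M4 replicate 2 the calls in M4 against M1 and against M2 were lost, at -1.79 and -1.76. The call against M2 was also lost without M2 replicate 1 (-2.05) and without M2 replicate 2 (-2.23). Without both doubted libraries both calls were lost (-1.78 and -2.05), and with them exchanged both held (-2.02 and -2.28).

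NRARP (ENSG00000198435, chromosome 9, 140194083 to 140196723, minus strand, 1 exon) was at 5.67 and 21.1 CPM in M1, 9.73 and 10.4 CPM in M2, 2.70 and 7.18 CPM in M3, and 1.22 and 2.43 CPM in M4. Both M4 libraries were below the other 6, and the M1 replicates lay on either side of M2 and differed most. NRARP had a log2 fold change of -2.87 ± 0.72 (SE, adjusted p = 0.021) in M4 against M1 and -2.47 ± 0.71 (adjusted p = 0.044) in M4 against M2. The first rested on M1 replicate 2, without which it was -1.64 (adjusted p = 0.095), and it was -3.52 and still called without M1 replicate 1. It was also lost without M4 replicate 1 (-2.45), without M4 replicate 2 (-3.43), without both doubted libraries (-1.63) and with them exchanged (-2.08). With edgeR fitted to M4 and M1 alone, the first call just missed the threshold (-2.875, adjusted p = 0.05025). The second was lost when any library of M2 or M4 was left out, with values from -3.02 to -2.04, and without both doubted libraries (-2.52), and it held at -3.11 with them exchanged.

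**Figure D3:**
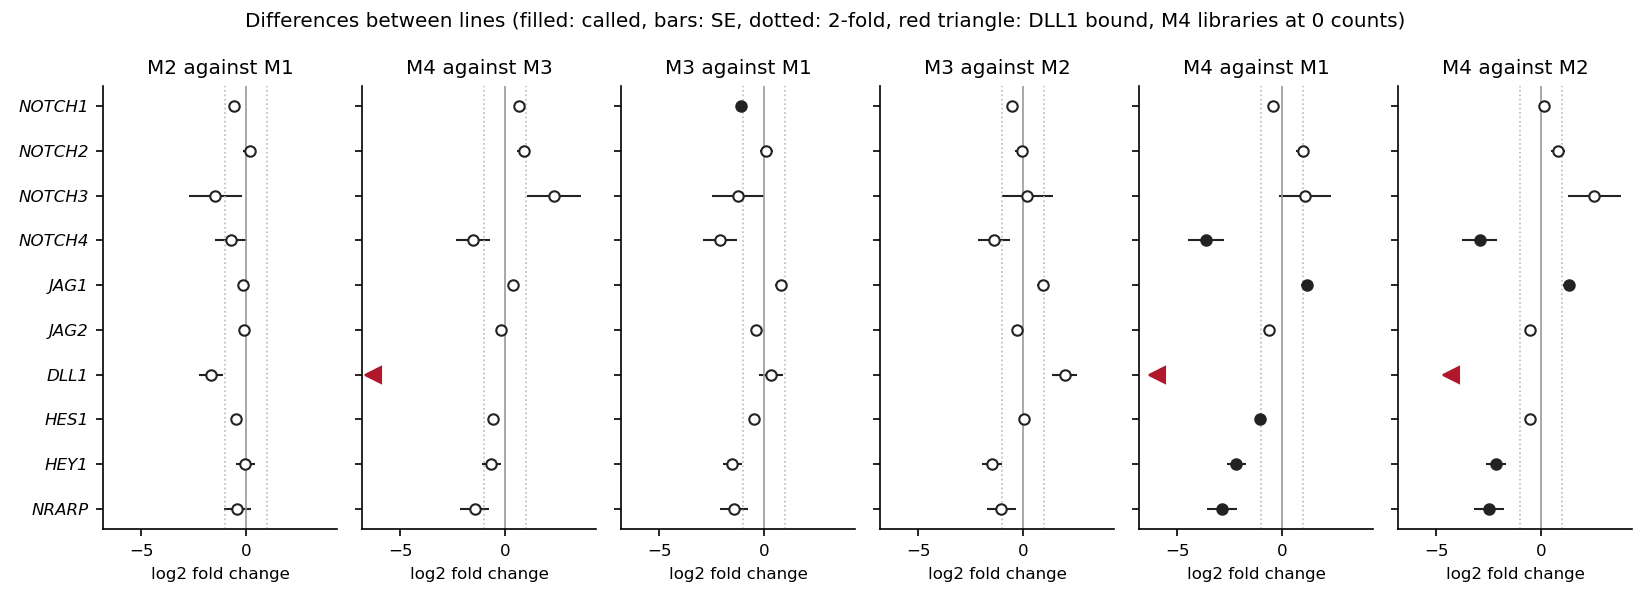
Log2 fold change (horizontal axis) of the 10 Notch genes in the 6 pairs of lines, the EGF-matched pairs first, with bars of 1 SE, filled points for genes called and dotted lines at 2-fold. The red triangles give the DLL1 bound where both M4 libraries were at 0 counts, and JAG1 is the 1 filled point to the right of 0, in M4 against M1 and against M2.

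The wider pathway was described with 49 further genes listed by role, of which 44 were tested. DLK1, HES5, HEYL, RBPJL and NEURL1 had too few counts. Of the 44, 8 were called in M4 against M1 (3 higher, 5 lower), 7 in M4 against M2 (2 higher, 5 lower), 6 in M4 against M3 (2 higher, 4 lower) and 4 in M3 against M1 (1 higher, 3 lower). Those are 18.2%, 15.9%, 13.6% and 9.09% of the genes tested, beside the shares of all genes given above. In M2 against M1 and in M3 against M2 edgeR called 0, and DESeq2 called 3 in each, beside the 7.14% and 7.80% of all genes given above for it. At an unadjusted p under 0.05 there were 10 and 11 genes, a limit for which the share of all genes was not counted.

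Among the other ligands, DLK2, a Delta-like homolog that lacks the receptor-binding domain of the classical ligands, fell furthest. It was at 28.6 and 16.8 CPM in M1, 7.25 and 7.17 CPM in M2, 14.9 and 7.41 CPM in M3, and 0.467 and 0.974 CPM in M4, with M4 below all other libraries. The log2 fold change in M4 was -4.99 ± 0.52 (SE, adjusted p = 0.00066) against M1, -3.34 ± 0.49 (adjusted p = 0.0039) against M2 and -3.97 ± 0.50 (adjusted p = 0.0041) against M3. All 3 held when any 1 library was left out, at -5.58 against M1 without M4 replicate 2 and -3.38 against M3 without M3 replicate 1, and without both doubted libraries or with them exchanged. DLL3 was highest in M3, at 3.33 and 2.86 CPM against 1.10 and 1.04 CPM in M1 and 1.43 and 1.31 CPM in M4. It was called in M3 against M1 (1.53 ± 0.31, adjusted p = 0.013) and in M4 against M3 (-1.18 ± 0.30, adjusted p = 0.036), and the second was lost when any library of M2, M3 or M4 was left out (-1.29 to -1.07). The first was lost without both doubted libraries and, at 0.97, with them exchanged.

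Fringe enzymes add sugars to Notch receptors and alter which ligands they answer. LFNG was at 16.8 and 22.3 CPM in M1, 16.6 and 14.0 CPM in M2, 17.2 and 21.8 CPM in M3, and 3.29 and 5.77 CPM in M4. It fell in M4 in all 3 pairs, with a log2 fold change of -2.11 ± 0.30 (SE, adjusted p = 0.0063) against M3, and the call against M2 (-1.76) was lost without M2 replicate 1 (-1.63). The 3 calls held without both doubted libraries and with them exchanged. MFNG, a related enzyme, was called higher in M4 against M1 (2.03 ± 0.50, adjusted p = 0.019), which was lost without M1 replicate 1 (1.58) and without M4 replicate 1 (1.55), and was 2.74 without M1 replicate 2. It held without both doubted libraries (2.74) and was lost with them exchanged (2.00, adjusted p = 0.061). None of the 9 genes of receptor cleavage, the ADAM proteases, furin and the gamma-secretase subunits, was called by edgeR or DESeq2 in any of the 6 pairs. In each pair 2 to 5 of them were at an unadjusted p under 0.05, for which the share of all genes was not counted.

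Of the ubiquitin and endocytosis genes, DTX3L, an E3 ubiquitin ligase of the Deltex family, was at 28.0 and 28.4 CPM in M1, 34.2 and 35.8 CPM in M2, 38.6 and 40.5 CPM in M3, and 101 and 76.3 CPM in M4. It rose in M4 against M1 (1.65 ± 0.16 SE, adjusted p = 0.00052), M2 (1.34 ± 0.16, adjusted p = 0.0019) and M3 (1.17 ± 0.16, adjusted p = 0.0054), and the last was under the 2-fold limit without M4 replicate 1 (0.95). All 3 held without both doubted libraries and with them exchanged. NEURL1B, an E3 ligase of the Neuralized family that acts on Notch ligands, fell in M4 against M1 (-2.90 ± 0.62, adjusted p = 0.011) and M2 (-3.60 ± 0.63, adjusted p = 0.0077). Both calls were lost without M4 replicate 1 (-2.78 and -3.48) or M4 replicate 2 (-3.01 and -3.71), and the first was -2.02 without M1 replicate 1. They held without both doubted libraries (-3.44 and -3.66) and with them exchanged (-3.49 and -3.06). NUMBL, a relative of the Notch inhibitor NUMB, fell in M4 against M2 (-1.39 ± 0.19, adjusted p = 0.0030), and that call was lost with the 2 doubted libraries exchanged (-1.08) and held without both (-1.34).

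In the nucleus, the co-activator MAML3 was lower than in M1 in both M3 (-1.46 ± 0.33, adjusted p = 0.020) and M4 (-1.24 ± 0.33, adjusted p = 0.025). Both calls were lost without M1 replicate 2 (-1.23 and -1.01), without M2 replicate 1 (-1.45 and -1.24), without M2 replicate 2 (-1.45 and -1.24), and without 1 library of the tumour line itself, M3 replicate 1 (-1.28), M3 replicate 2 (-1.64) or M4 replicate 1 (-0.91). They were also lost without both doubted libraries (-1.23 and -1.01) and with them exchanged (-1.15 and -0.93).

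Among the other genes listed as targets, 2 of the HES family moved in opposite directions in M4. Whether Notch signalling controls either gene in these cells was not tested. HES2 was at 25.0 and 14.1 CPM in M1, 16.2 and 14.7 CPM in M2, 19.5 and 11.8 CPM in M3, and 86.9 and 78.8 CPM in M4, with both M4 libraries above the rest. Its log2 fold change in M4 was 2.08 ± 0.32 (SE, adjusted p = 0.0030) against M1, 2.42 ± 0.32 (adjusted p = 0.0028) against M2 and 2.40 ± 0.32 (adjusted p = 0.0050) against M3, and all 3 calls held when any 1 library was left out, without both doubted libraries and with them exchanged. HES7 fell in M4 against M1 (-1.63 ± 0.39, adjusted p = 0.017), M2 (-2.24 ± 0.40, adjusted p = 0.0076) and M3 (-1.76 ± 0.39, adjusted p = 0.023), from 1.80 to 3.73 CPM in the other lines to 0.767 and 0.641 CPM. Its calls were lost in 3 of the 8 fits that left out 1 library against M1 (-1.76 to -1.35), without M2 replicate 1 (-2.05) or M4 replicate 2 (-2.09) against M2, and in 5 such fits against M3 (-1.89 to -1.36). Without both doubted libraries all 3 calls were lost (-1.35, -2.05 and -1.76, with adjusted p-values of 0.14, 0.059 and 0.051), and with them exchanged the call against M3 was lost (adjusted p = 0.085) and the other 2 held (-1.97 and -1.96).

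**Figure D4:**
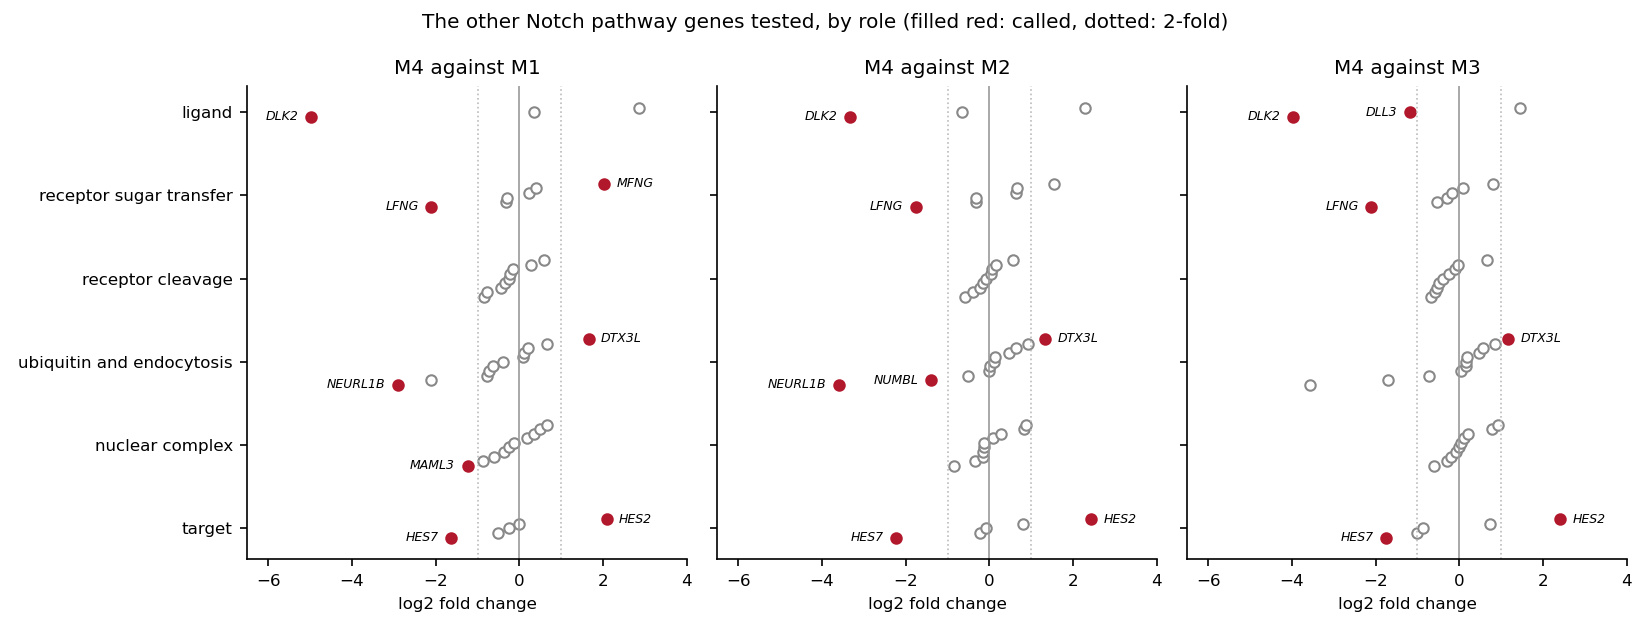
Log2 fold change (horizontal axis) of the 44 other Notch pathway genes tested, by role, in M4 against each other line, with filled red points and names for genes called and dotted lines at 2-fold. DLK2, LFNG and HES7 lie to the left and HES2 and DTX3L to the right in all 3 panels.

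The genes with the most similar pattern over the 8 libraries, by Pearson's r of log2 CPM among 14078 protein-coding genes, are given as a description only. For NOTCH1 these were ACSBG1 and KDM5C (r = 0.979 for both), for NOTCH4 PTK7 (0.983) and ARID5A (0.982), and for JAG1 ASB1 (0.992) and LIF (0.978). For DLL1 they were SLC22A17 (0.992) and CAPN6 (0.991), for HES1 BRAT1 (0.991) and LRRC75B (0.984), and for NRARP IL22RA2 (0.991) and CAAP1 (0.973). For HEY1 they were MBOAT7 (0.980) and FAM120B (0.978), the gene that overlaps DLL1. The 8 points share their scaling and fall into 4 lines.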

How the data were processed

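Poly A+ RNA of 8 libraries was measured. The authors trimmed reads with Trimmomatic, aligned them to hg19 with STAR and estimated counts per gene with RSEM on GENCODE 19. Versions and the use of strand in counting are not given in the sources used here. The deposited values are expected counts per gene and library (12.8% of the values were not whole), which were rounded. Gene names came from GENCODE 44 on GRCh37, which matched 94.7% of the genes with a count, and transcript lengths were those of the canonical transcripts.

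18431 genes passed edgeR's filter. edgeR 4.0.16 (R 4.3.3) was fitted to all 8 libraries with TMM scaling, a coefficient per line and no covariate, with robust quasi-likelihood tests and Benjamini-Hochberg adjustment over all genes tested. Calls needed an adjusted p under 0.05 and a difference above 2-fold. The script was also run on simulated data, with the same spread for every gene and library and with changes above 2-fold. That run does not show how calls behave under the unequal spreads of these lines or near 2-fold. With 2 replicates per line, p-values set the differences between lines against a spread estimated over all 8 libraries. Replicate numbers pair nothing in the labels. Alternatives were DESeq2 1.42.0, other scalings and filters, a replicate block, pairwise fits, exchange of the 2 doubted libraries, and leaving out libraries.

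The genes and lists were chosen with earlier results of these data known. Named were all 10 Notch genes and, in each role, up to 3 other genes called in at least 1 of the 6 pairs, by largest log2 fold change. HEY1 sequence is not reported here, and the RefSeq table used held no DLL1 promoter.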

Additional observations from a re-analysis of the deposited data

How the results depend on the processing

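Each alternative was applied to the 7 counts of Notch genes called and the 6 counts of other pathway genes called, and to 43 log2 fold changes. Some of the 43, such as that of NOTCH2 in M4 against M1, were not called in the main fit and so could not lose a call. The differences of NOTCH3 from M1, whose direction depended on the M1 library, were not among the 43. Of the 731 alternative values of these fold changes, 622 kept their direction and their side of the threshold, 100 lost their call, 9 gained one and 0 changed sign. RLE scaling and a filter of 10 counts in 2 libraries changed none of the 43 and DESeq2 changed 1. The cause of the changes below was not tested except where fewer libraries were fitted. Deviations of same-numbered libraries correlated at 0.248 across genes in M4 with M3 and at -0.0915 to 0.00229 in the other 5 pairs of lines, so that the samples were not treated as paired. With a replicate block 6 Notch genes were called in M4 against M1 and 5 in M4 against M2, as without it, and the DLL3 call in M4 against M3 was lost (-1.18). For Notch genes without a filter on low counts, 2 were called in M2 against M1, 5 in M3 against M1, 3 in M3 against M2, 4 in M4 against M3 and 10 among the 4 lines, beside 6.08%, 11.8%, 6.39%, 9.91% and 31.6% of all genes. DESeq2 called 3 in M3 against M1 and 2 in M3 against M2 (15.4% and 7.80% of all genes). A plain 2-fold rule in both replicates called 2, 1 and 3 in M3 against M1, M3 against M2 and M4 against M3 (17.3%, 12.3% and 16.0%). With the 2 doubted libraries exchanged the counts were 0 in M3 against M1, 3 in M4 against M1 and 2 among the 4 lines (1.19%, 8.46% and 8.96%). Without both they were 2 in M3 against M1, 2 in M4 against M1, 3 in M4 against M2, 2 in M4 against M3 and 3 among the 4 lines (8.37%, 12.5%, 7.31%, 8.65% and 15.4%). Fits of the 2 lines alone, and the adjusted p alone, gave 2 in M4 against M3 (10.1% and 16.8%). Fitted alone, M4 against M1 gave 4 (17.8% of all genes), without NOTCH4 and NRARP, and M4 against M2 gave 6 (17.9%), with NOTCH3 added. Of the 43 fold changes, 8 lost their call in fits of the 2 lines alone and 1 gained one. Leaving out 1 library gave 0 to 1 in M2 against M1, 1 to 3 in M3 against M1, 1 to 6 in M4 against M1, 1 to 6 in M4 against M2, 1 to 2 in M4 against M3 and 2 to 8 among the 4 lines.

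For the other pathway genes, shares in brackets are those of all genes, and counts without one are to be read beside the shares above. In M2 against M1, 1 was called with RLE scaling (3.33%), 3 by DESeq2 (7.14%) and 4 without the filter (6.08%). In that pair 1 was called with the 2 lines alone (3.51%) and 1 by the plain 2-fold rule (10.2%). In M3 against M2, 3 were called by DESeq2 (7.80%), 2 without the filter (6.39%) and 1 with the 2 lines alone (5.52%). In that pair 1 was called by adjusted p alone (5.55%) and 2 by the plain rule (12.3%). Fits of the 2 lines alone called 9.55% of all genes in M3 against M1. In M3 against M1, 8 were called without the filter, 2 with the 2 lines alone, 0 with the doubted libraries exchanged and 1 without both. The adjusted p alone called 15, 13 and 10 in M4 against M1, M2 and M3 (31.4%, 22.2% and 16.8% of all genes). Leaving out 1 library gave 0 to 1 in M2 against M1, 2 to 5 in M3 against M1, 4 to 8 in M4 against M1, 0 to 1 in M3 against M2, 5 to 8 in M4 against M2 and 3 to 8 in M4 against M3. Where a fit left 1 library in a line, that library was assumed to vary like the others. With 2 replicates, few counts for DLL1, NOTCH4 and HEY1, and M1 replicates that differ widely for NOTCH3, NOTCH4 and NRARP, differences near 2-fold were not well resolved.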
